A study of Mus musculus with 3 samples.

Results

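The pericytes described here are 63 of 24858 cells kept from mouse dorsal skin. They number 12 of 10428 in the normal library, 22 of 8008 in the IMQ library and 29 of 6422 in the IMQ+celastrol library. The cells were chosen by measured values, their own transcript counts, in unique molecular identifiers (UMIs, each standing for 1 captured transcript). A pericyte had to hold at least 3 UMIs of Rgs5, at least 1 UMI of any of Kcnj8, Abcc9, Higd1b and Notch3, less than 3 UMIs of Myh11 per 10000 UMIs, and no UMI of Pecam1 or Ptprc. Cells with fewer than 300 genes or with over 20% of their UMIs from mitochondrial genes had been left out.

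The study asked how celastrol acts in a mouse model of psoriasis, and its title names the receptor LRP1 and crosstalk between fibroblasts and macrophages. All mice were C57BL/6 and 7 weeks of age. The normal group was a control given glycerin. The IMQ group was given imiquimod, a Toll-like receptor agonist that induces a psoriasis-like dermatitis in mice, and the IMQ+celastrol group was given both imiquimod and celastrol, a plant triterpenoid. Each group was 1 library of 3' transcripts, and the number of mice behind a library is not given in the sources used here. Library and treatment therefore cannot be told apart, no test between groups is possible, and no p-value is given. Every interval below is a 95% interval of counting error alone, which leaves out differences between cells, mice and libraries.

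Pericytes are the mural cells of capillaries and small venules. They sit inside the vessel's basement membrane in contact with the endothelium, which recruits them through PDGF-B and its receptor Pdgfrb, and Notch3 signalling keeps them in place. Smooth muscle cells cover the larger vessels and carry the full contractile apparatus, of which the smooth muscle myosin Myh11 is a defining part. Between them lies a continuum, and most capillary pericytes hold little Myh11. In inflamed skin the capillary loops of the dermis widen and multiply, and mural cells are known as a source of chemokines and of matrix.

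The rule picked the end of a continuous population. At least 3 UMIs of Rgs5, a regulator of G protein signalling typical of mural cells, were found in 151 normal, 379 IMQ and 292 IMQ+celastrol cells. Of these, 134, 370 and 292 also held 1 of the other 4 genes, and 113, 341 and 286 of those held no Pecam1 and no Ptprc. The Myh11 limit then kept 10.6%, 6.45% and 10.1% of them. The median level of Myh11 before that limit was 18.1, 29.2 and 31.0 UMIs per 10000, so the pericytes lay far below the typical Rgs5-positive cell in all 3 libraries. Among the pericytes, 7, 7 and 10 cells had no Myh11 UMI. Just inside the limit, at 2 to 3 UMIs per 10000, were 2, 5 and 9 cells, and just outside, at 3 to 4, were 7, 8 and 5. On the Rgs5 side, 2, 4 and 2 pericytes held 3 to 5 UMIs. Cells that met every other condition with 1 or 2 Rgs5 UMIs numbered 1, 6 and 66, and 61 of the 66 in the IMQ+celastrol library held Krt14, a keratin of basal keratinocytes.

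**Figure D1:**
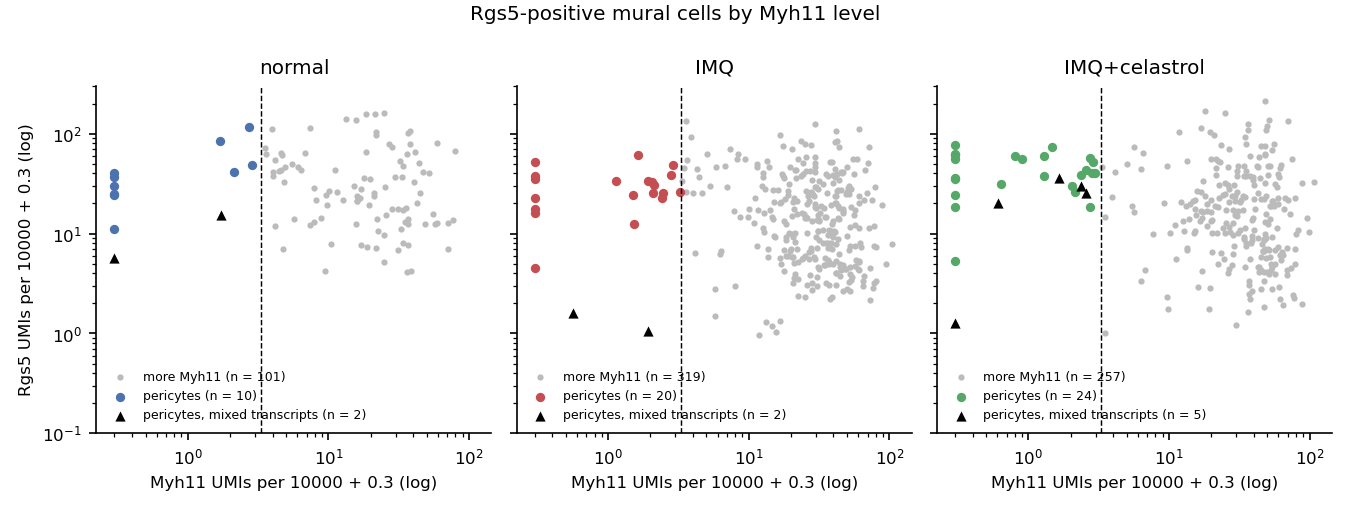
Each point is 1 cell with at least 3 Rgs5 UMIs that meets the other conditions, by its level of Myh11 (x) and of Rgs5 (y), both in UMIs per 10000 on log axes with a small constant added. Coloured points and black triangles left of the dashed limit are the pericytes. Triangles are the 9 cells above the limits set below for transcripts of other cell types. The 101, 319 and 257 grey points are the cells with more Myh11. The points run across the limit without a gap in any of the 3 panels.

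The genes the rule used are given as a description. Rgs5 ranged over the pericytes from 5.42 to 115 UMIs per 10000 in the normal library (median 33.1), from 0.768 to 60.8 in the IMQ library (25.4) and from 0.972 to 77.4 in the IMQ+celastrol library (37.5). The 3 ranges overlapped, from 5.42 to 60.8, and 2 normal cells, at 84.5 and 115, lay above all the others. Kcnj8 and Abcc9, the paired subunits of the ATP-sensitive potassium channel of capillary mural cells, were seen in 7, 15 and 22 cells and in 9, 17 and 27 cells. Notch3 was seen in 10, 20 and 27 cells, and Higd1b, a small mitochondrial protein gene, in 8, 14 and 27. Myh11 medians were 0, 1.27 and 0.981 UMIs per 10000.

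The label was checked against genes that the rule did not use. Of 15 further mural markers, 14 had a UMI in the normal pericytes and 15 in each of the others, the exception being Anpep. Pdgfrb, the receptor through which endothelium recruits pericytes, was found in 11 of 12, 20 of 22 and 27 of 29 cells. Its level over all pericytes of a library was 535, 395 and 452 CPM (UMIs of the gene per 1000000 UMIs). Ndufa4l2, a mitochondrial gene typical of pericytes, was found in 11, 20 and 28 cells, and Cox4i2, a hypoxia-type subunit of cytochrome oxidase, in 9, 15 and 27. Detection of such mural markers does not by itself set pericytes apart from the Rgs5-positive cells with more Myh11. Cox4i2 was seen in 58.4%, 72.4% and 77.4% of those, at 347, 273 and 279 CPM. In the pericytes it stood at 861, 1365 and 1873 CPM. Acta2, smooth muscle actin, was found in 10, 22 and 29 cells with medians of 14.4, 26.2 and 31.2 UMIs per 10000, so these cells were low in Myh11 and not devoid of contractile transcripts. Of 11 smooth muscle markers, which include Myh11, 8, 10 and 10 had a UMI, in 12, 22 and 29 cells, at 7530, 3591 and 4826 CPM in sum. The 5 pericyte genes of the rule summed to 4568, 3425 and 5436 CPM. Pln was at 0 in all 3 libraries and Cnn1 and Smtn at 0 in the normal one. Of 7 endothelial markers 2, 4 and 3 had a UMI, in 6, 16 and 21 cells, at 170, 241 and 213 CPM in sum, with Pecam1, Cdh5 and Cldn5 at 0 everywhere. Of 9 fibroblast markers 7, 7 and 9 had one, in 11, 22 and 28 cells, at 6094, 2105 and 4091 CPM in sum, with Pdgfra at 0 in the IMQ pericytes. Their part in the results was not tested. The melanocyte markers were at 0 in all 3 libraries. Of 8 immune markers, all were at 0 in the normal pericytes, while 3 had a UMI in IMQ pericytes and 4 in those of the IMQ+celastrol library. They were seen in 13 IMQ and 18 IMQ+celastrol cells, at 2701 and 47.3 CPM in sum. A single cell held 86.3% of the IMQ sum.

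Depth differed between the libraries and sets how firmly the rest can be read. The pericytes held 76628, 452825 and 634855 UMIs in all, with a median per cell of 4284, 13517 and 20268 and a range of 1670 to 22134, 580 to 143176 and 1276 to 65121. One UMI was thus worth 13.1, 2.21 and 1.58 CPM, and the floor used for a gene at 0, 3 UMIs, was 39.2, 6.63 and 4.73 CPM. The largest cell held 28.9%, 31.6% and 10.3% of its library's pericyte UMIs. Over all kept cells the median depth was 5985.5, 9067 and 10776 UMIs. Conditions set in whole UMIs, such as 3 of Rgs5 or none of Pecam1, select differently at different depths, and the part this played was not tested. Between libraries 26, 15 and 23 barcode sequences were shared, and no pericyte barcode was.

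Of the 63 cells, 9 held many transcripts of other cell types and are called mixed below. They were set apart by limits chosen after the cells had been seen, namely over 0.5% of UMIs from 6 keratinocyte genes (Krt5, Krt14, Krt1, Krt10, Krt6a, S100a8), over 0.5% from the lipid genes Scd1, Mgst1, Elovl6 and Soat1 of the sebaceous gland, or at least 2 UMIs of Pdgfra, the defining receptor of fibroblasts. The normal library had 2, the IMQ library 2 and the IMQ+celastrol library 5. These cells held 47.3%, 40.0% and 32.8% of the pericyte UMIs. The IMQ cell with 143176 UMIs held 2.68% of them in the 6 keratinocyte genes and a UMI of all 10 cycling genes used below, and the other mixed IMQ cell 9.92% in the keratinocyte genes. A normal cell of 22134 UMIs held all the normal UMIs of Scd1, Elovl6 and Soat1 and 96.9% of those of Mgst1. A doublet score (Scrublet) marked 5, 5 and 4 pericytes, of which 0, 0 and 2 were mixed cells. Results are therefore given for all 63 pericytes and again for the 54 without the mixed cells (10, 20 and 24), which held 40389, 271777 and 426849 UMIs. The 54 were not free of fibroblast transcripts. Among them, an IMQ cell of 11450 UMIs held 45 of the fibroblast gene Dcn, and an IMQ+celastrol cell of 25650 held 72. Cells mixed by Pdgfra held from 2 to 332. The Pdgfra limit is in whole UMIs, and the part of depth in it was not tested.

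Free RNA is the other source of foreign transcripts in droplets. Rgs5 had a UMI in 0.318%, 2.01% and 11.3% of keratinocytes, which should lack it, at median depths of 9193.5, 36147.5 and 23996.5 UMIs. In the other direction, the 7 keratinocyte markers together reached a median of 1.14, 1.69 and 4.91 UMIs per 10000 in a pericyte and were seen in 6, 18 and 27 of them. Krt14 stood at 49.5, 55.2 and 291 CPM in the 54 cells. The IMQ+celastrol library thus carried the most Rgs5 in keratinocytes and, over the 54 cells, the most Krt14 in pericytes. Summed over all 63 cells the keratinocyte markers were highest in the IMQ pericytes, at 548, 14085 and 2777 CPM.

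**Figure D2:**
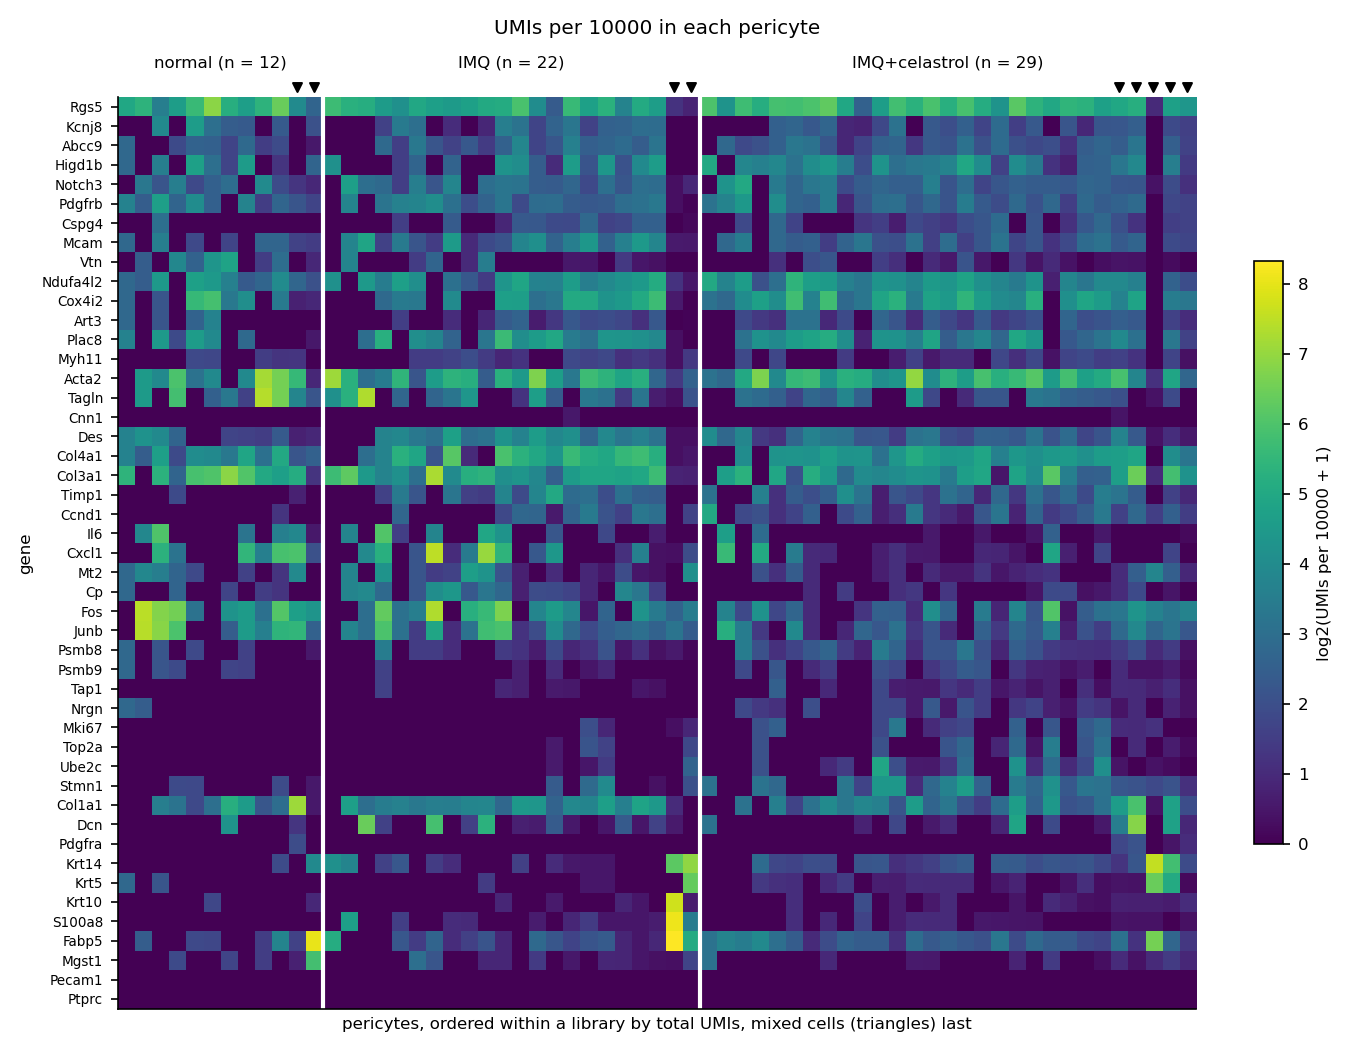
Each column is 1 of the 63 pericytes, ordered within its library by total UMIs with the mixed cells, marked by triangles, last, and each row is a gene, with its level in UMIs per 10000 on the colour scale. Mural genes run through nearly all columns, keratins and fibroblast genes are strong in the mixed columns, and the cycling genes fill the IMQ+celastrol panel more than the other 2.

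Set beside the Rgs5-positive cells with more Myh11, the pericytes stood apart in a small share of genes. This comparison follows the rule, so it is given as a description. Of 2681 genes with at least 30 UMIs in both populations together in each library, 34 (1.27%) were at least 2-fold higher in the pericytes of all 3 libraries and 181 (6.75%) at least 2-fold lower. Without the mixed cells 22 of the 34 and 96 of the 181 stayed past 2-fold. Of the 34, 3 are genes of the rule, Kcnj8, Abcc9 and Higd1b. Plac8, a small cysteine-rich protein gene, stood at 365, 1005 and 1047 CPM in pericytes against 55.5, 116 and 118 CPM. Its level in a pericyte ranged from 0 to 23.1, 50.4 and 34.5 UMIs per 10000, with medians of 1.56, 11.2 and 8.87. Tnfrsf21, a death receptor, stood at 300.2, 254 and 315 CPM, and was seen in 10, 14 and 25 pericytes. Other genes on the higher side in both readings were Cxcl10, Emp1, Ifitm1, Col5a3, Col5a2, Col6a3, Thy1, Nrep and Cox4i2. The cells with more Myh11 held such genes too, with Col6a3 seen in 49.5%, 87.5% and 88.3% of them. The lower side was led by Sorbs2, Fbxl22, Map3k7cl and Kcnab1, and 16 of the 20 genes of the contractile list were on it and none on the higher side.

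Pericytes made up 0.115% of the kept normal cells (0.0595% to 0.201%), 0.275% of the IMQ cells (0.172% to 0.416%) and 0.452% of the IMQ+celastrol cells (0.303% to 0.648%), with exact Clopper-Pearson intervals. The share was 2.39-fold higher in the IMQ than in the normal library (1.13 to 5.29). It was 1.64-fold higher in the IMQ+celastrol than in the IMQ library, with an interval from 0.912 to 3.0 that includes no difference. Per 100 endothelial cells there were 5.63, 10.6 and 23.4 pericytes, a ratio of 1.89 for IMQ to normal (0.894 to 4.18) and of 2.2 for IMQ+celastrol to IMQ (1.22 to 4.02). The Rgs5-positive cells with more Myh11 made up 0.969%, 3.98% and 4.0%, a 4.11-fold difference between IMQ and normal (3.28 to 5.20) and a ratio of 1.0 between IMQ+celastrol and IMQ (0.849 to 1.19). Leaving out the cycling cells described next turned the ratio of IMQ+celastrol to IMQ to 0.623. Among kept cells with fewer than 3 UMIs of Krt5, Krt14, Krt1 and Krt10 the pericytes were 11 of 5559, 18 of 5441 and 4 of 1385, or 0.198%, 0.331% and 0.289%. So 25 of the 29 IMQ+celastrol pericytes held at least 3 keratin UMIs. In dissociated tissue these shares hold the yield of each cell type as well, which was not tested.

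Transcripts of dividing cells were found in more of the IMQ+celastrol pericytes than of the others. A pericyte was called cycling where at least 3 of 10 genes of the G2 and M phases (Mki67, Top2a, Ccnb1, Ccnb2, Cdk1, Birc5, Ube2c, Cenpf, Tpx2, Nusap1) had a UMI. That held for 1 of 12 normal cells (8.33%, 0.211% to 38.5%), 4 of 22 IMQ cells (18.2%, 5.19% to 40.3%) and 20 of 29 IMQ+celastrol cells (69.0%, 49.2% to 84.7%). A further filter left out pericytes with genes of other cell types. It kept those with no Pdgfra and fewer than 3 UMIs summed over Krt5, Krt14, Krt10, Cd74, Lyz2 and S100a8. These were 10, 11 and 5 cells with 40389, 103606 and 40131 UMIs in all, and their cycling shares were 0, 0 and 20%. A limit in whole UMIs is easier to meet for a shallow cell, and the part of depth was not tested. Over all pericytes the median cell had 0, 0 and 5 of the 10 genes, and the highest 4, 10 and 10. Mki67, which marks all active phases of the cycle, was seen in 0, 4 and 14 pericytes at 0, 48.6 and 175 CPM. Without the mixed cells the counts were 0 of 10, 3 of 20 (15%) and 16 of 24 (66.7%, 44.7% to 84.4%).

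The cycling pericytes were also the deeper ones, and depth raises the chance of seeing a gene. Their median was 23018 UMIs against 10148 for the rest in the IMQ+celastrol library, and 23581.5 against 10827.5 in the IMQ library. With each cell thinned to 2000 UMIs, which left out 1, 3 and 2 shallower cells, 0 of 11, 1 of 19 (5.26%) and 8 of 27 pericytes (29.6%, 13.8% to 50.2%) still met the call. The same thinning left 0 of 89, 1 of 319 and 4 of 256 Rgs5-positive cells with more Myh11, of which 1, 12 and 12 had met it at full depth. Keratinocytes, the most proliferative population of skin, met it in 26.1%, 41.7% and 29.1% of cells at full depth, fibroblasts in 5.65%, 2.96% and 3.43% and endothelial cells in 3.76%, 12.1% and 8.87%. Thinned to 2000 UMIs, 13.1%, 11.0% and 9.44% of keratinocytes met the call. For fibroblasts the thinned shares were 3.31%, 0.859% and 1.31%, and for endothelial cells 0.571%, 2.96% and 4.88%. Of the IMQ+celastrol cells with more Myh11, 4.67% met the call at full depth. Their median depth was 10644 UMIs, against 20268 in the pericytes of that library. Free RNA was not measured here, and its part in the calls was not tested.

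Cycling cells lay at the low end of Myh11 in both treated libraries. Among IMQ+celastrol Rgs5-positive cells the call was met by 4 of 10 with no Myh11 UMI and by 16 of 19 with some but under 3 UMIs per 10000. It was met by 9 of 19 at 3 to 10, 3 of 88 at 10 to 30 and 0 of 150 above. In the IMQ library the same steps gave 1 of 7, 3 of 15, 8 of 29, 4 of 129 and 0 of 161, and in the normal library 0 of 7, 1 of 5, 1 of 29, 0 of 37 and 0 of 35. The median depth in these steps was 10436, 25650, 17701, 9836 and 10501.5 UMIs in the IMQ+celastrol library. A cell can fall between 0 and the limit only if it is deep enough for 1 UMI to be under the limit, so the second step holds deep cells by construction.

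**Figure D3:**
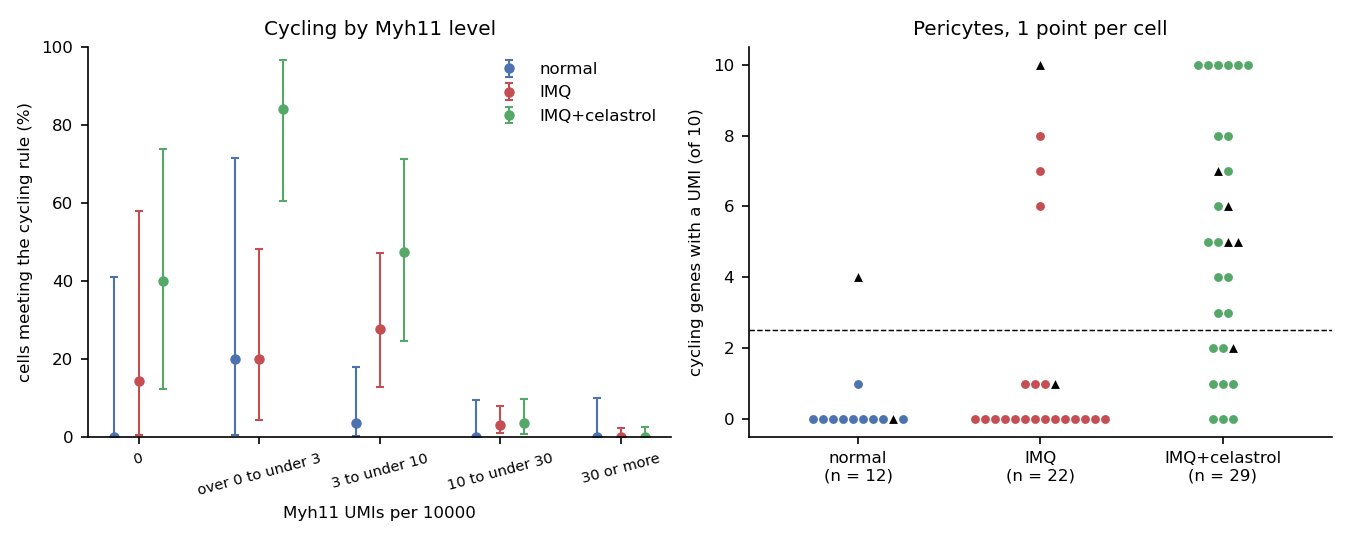
Left, the percent of Rgs5-positive cells that met the cycling rule in each step of Myh11 (UMIs per 10000), with 95% Clopper-Pearson intervals, coloured by library; the pericytes are the first 2 steps. Right, each point is 1 pericyte by its number of cycling genes with a UMI, triangles the mixed cells and the dashed line the rule of at least 3: 1 normal, 4 IMQ and 20 IMQ+celastrol pericytes lie above it.

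Gene by gene, the difference between the treated libraries was larger without the mixed cells. Ube2c, which loads ubiquitin for the anaphase-promoting complex, ranged from 0 to 29.7 UMIs per 10000 in the IMQ+celastrol pericytes (median 0.498, 18 cells with a UMI), from 0 to 5.31 in the IMQ pericytes (median 0, 4 cells) and was at 0 in the normal ones. The IMQ+celastrol cells reached far above the rest, although 11 of them had none. Its level was 181 CPM in IMQ and 367 CPM in IMQ+celastrol pericytes, a 2.03-fold difference (1.57 to 2.64). Over the 54 cells it was 22.1 and 539 CPM, 24.4-fold (11.0 to 67.2), since the mixed IMQ cell of 143176 UMIs held 92.7% of the IMQ count. Cdk1, the mitotic kinase, stood at 77.3 and 235 CPM, 3.04-fold (2.09 to 4.52), and Ccnb2, a cyclin that activates it, at 57.4 and 158 CPM, 2.74-fold (1.77 to 4.40). In the Rgs5-positive cells with more Myh11 Ube2c was 7.48 and 60.0 CPM and Cdk1 12.8 and 39.9 CPM, so these cells differed in the same direction at a lower level.

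The promoters of these 3 genes are shown because genes of the G2 and M phases are known to share a promoter element, the cell cycle genes homology region (CHR), and CCAAT boxes. The sequences are RefSeq promoters of GRCm38.p6, from 250 bases before to 50 after the start, written 5' to 3' on the gene's strand. Capitals mark TTTGAA, the core of the CHR, and CCAAT, each searched on both strands, so that TTCAAA and ATTGG are the same letters read on the other strand. In Ube2c a CCAAT overlaps its own reverse complement. The regions are chr9:70421505-70421804 on the minus strand for Ccnb2, chr10:69352863-69353162 on the minus strand for Cdk1 and chr2:164769679-164769978 on the plus strand for Ube2c.
Ccnb2: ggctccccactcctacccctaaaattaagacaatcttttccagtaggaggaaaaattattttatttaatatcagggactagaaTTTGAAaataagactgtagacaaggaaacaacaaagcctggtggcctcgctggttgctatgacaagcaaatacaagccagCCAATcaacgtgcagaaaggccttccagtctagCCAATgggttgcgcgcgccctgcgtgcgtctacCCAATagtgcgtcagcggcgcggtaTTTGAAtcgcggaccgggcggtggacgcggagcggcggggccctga
Cdk1: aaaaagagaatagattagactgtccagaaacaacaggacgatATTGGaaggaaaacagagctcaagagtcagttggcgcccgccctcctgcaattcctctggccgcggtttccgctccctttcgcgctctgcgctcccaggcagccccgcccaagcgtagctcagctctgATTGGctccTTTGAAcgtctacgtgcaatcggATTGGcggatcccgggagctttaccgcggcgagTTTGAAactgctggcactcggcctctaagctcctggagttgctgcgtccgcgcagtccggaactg
Ube2c: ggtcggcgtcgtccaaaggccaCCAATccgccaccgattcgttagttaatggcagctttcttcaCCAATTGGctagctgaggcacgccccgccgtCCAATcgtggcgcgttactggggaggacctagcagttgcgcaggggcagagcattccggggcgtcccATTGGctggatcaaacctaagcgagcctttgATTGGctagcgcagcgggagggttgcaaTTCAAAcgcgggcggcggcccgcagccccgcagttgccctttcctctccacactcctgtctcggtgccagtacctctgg
Of the 10 cycling genes 9 had a promoter in the table. TTTGAA was in 6 of the 9 and CCAAT in 7, against 17.9% and 37.4% of all 32851 promoters. Of 22 promoters of the contractile list 3 held TTTGAA and 11 CCAAT. A match is a description of the letters and not a bound site.

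The first comparison, IMQ against normal, describes pericytes in the psoriasis model. Ccnd1, Timp1 and Adamts2 were higher in the IMQ pericytes, as were 6 of 14 hypoxia and glycolysis genes, with 0 lower, while 8 of 17 immediate early genes were lower and 0 higher. A gene was compared where the pericytes of the 2 libraries together held at least 30 UMIs of it, and called where its CPM differed at least 2-fold. Of 2793 such genes 494 (17.7%) were called higher in the IMQ library and 291 (10.4%) lower, with a median log2 ratio of 0.12 over all of them. Without the mixed cells 309 of 1671 (18.5%) were higher and 167 (9.99%) lower, with a median of 0.19. The normal side rests on 12 cells, so each ratio has a wide interval where the normal count is small.

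Ccnd1, cyclin D1, which carries growth signals into the cell cycle, was seen in 1 of 12 normal pericytes, at 1.39 UMIs per 10000, and in 12 of 22 IMQ pericytes, with a median of 1.28 and a maximum of 9.43. It was nearly confined to the IMQ side, although 10 IMQ cells had none. The levels were 13.1 and 329 CPM, a ratio of 25.2 (4.46 to 1002) from 1 UMI against 149, and 17.7 (3.11 to 704) over the 54 cells. Timp1, an inhibitor of matrix metalloproteinases, was seen in 2 normal cells, up to 2.68 UMIs per 10000, and in 16 IMQ cells, up to 31.4 with a median of 3.27. Its levels were 26.1 and 455 CPM, a ratio of 17.4 (4.76 to 145), and 30.6 (5.43 to 1215) over the 54 cells. Adamts2, the protease that trims procollagen, was 12.8-fold higher (3.48 to 106), with 2 UMIs in the normal and 151 in the IMQ pericytes. In the Rgs5-positive cells with more Myh11, Timp1 was also higher in the IMQ library, by 1.52 on the log2 scale, and Adamts2 by 1.96, while Ccnd1 was higher by 0.63.

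Among receptors that tie mural cells to vessels, 3 of 11 compared genes of the PDGF and guidance list were called higher and 1 lower, with a median log2 ratio of 0.54. The counts were the same over the 54 cells (median 0.41). Of all genes compared 17.7% were called higher and 10.4% lower, and 18.5% and 9.99% over the 54 cells. Cspg4 (NG2), a proteoglycan of mural cells, was seen in 1 of 12 normal and 13 of 22 IMQ pericytes, at 26.1 and 188 CPM (7.19-fold, 1.93 to 60.3). Mcam (CD146), a co-receptor of Pdgfrb, was seen in 8 and 21 cells, with medians of 2.20 and 7.41 UMIs per 10000 and maxima of 10.8 and 28.1. The upper part of the IMQ range thus lay above every normal cell, and the CPM were 261 and 707 (2.71-fold, 1.72 to 4.49). Cd248 (endosialin), a marker of activated pericytes, stood at 91.4 and 475 CPM (5.20-fold, 2.48 to 13.1). Pdgfrb itself was 535 and 395 CPM, a ratio of 1.35 in favour of the normal cells (0.940 to 1.91), and Itga7, a laminin receptor subunit, was the member called lower. Of the Notch list, 1 of 6 genes was higher, the feedback inhibitor Nrarp (39.2 and 110 CPM), and 1 lower, the target Hes1.

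The contractile list had 1 of 16 genes higher and 5 lower, with a median log2 ratio of -0.24, and of -0.60 with the same counts over the 54 cells. That direction depends on the cells taken: the median was 0.56 without the top-scoring cells by Scrublet, 0.22 with the Rgs5 limit set per 10000 UMIs and 0.48 with no Myh11 limit. Tagln, which binds actin filaments in smooth muscle, ranged from 0 to 166 UMIs per 10000 in the normal pericytes (median 6.94) and from 0 to 162 in the IMQ pericytes (4.77). The ranges were alike, and 2 normal cells held 90 and 68 of the 217 normal UMIs. The levels were 2832 and 510 CPM, 5.55-fold lower in the IMQ library (4.59 to 6.71). Tpm1, a tropomyosin, had medians of 10.5 and 5.02 UMIs per 10000 and was 2.46-fold lower (1.91 to 3.14). Myl9, a myosin light chain, Synpo2, an actin-bundling protein, and Mustn1, a small muscle protein, were the other genes called lower. Des (desmin), the intermediate filament of muscle and pericytes, went the other way, with medians of 2.16 and 8.79 and levels of 274 and 738 CPM (2.69-fold higher, 1.73 to 4.41). In the cells with more Myh11, Tagln was 0.43 higher on the log2 scale in the IMQ library. Myh11 was part of the rule, so contractile genes that go with it are not independent of the choice of cells.

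Of 14 glycolytic and hypoxia genes compared, 6 were called higher and 0 lower, with a median log2 ratio of 0.62. Over all genes compared 17.7% were called higher, with a median of 0.12. Over the 54 cells 3 of 11 genes of the list were higher (median 0.75), against 18.5% of all genes (median 0.19). Gapdh had medians of 5.23 and 12.6 UMIs per 10000 and levels of 600.3 and 1784 CPM (2.97-fold, 2.21 to 4.09). Pkm, the last enzyme of glycolysis, had levels of 157 and 916 CPM (5.85-fold, 3.31 to 11.4). Both were seen in most IMQ pericytes (20 and 19 of 22), and the normal maximum of Pkm, 3.59 UMIs per 10000, lay below the IMQ median of 5.98. The Rgs5-positive cells with more Myh11 had 277 and 584 CPM of Pkm.

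Immediate early genes, which respond within minutes to stimulation and to tissue dissociation, were lower in 8 of 17 compared and higher in none, with a median log2 ratio of -0.81. Over the 54 cells it was 9 of 16 and -1.03. Fos ranged from 0 to 174 UMIs per 10000 in the normal (median 20.8) and from 0 to 161 in the IMQ pericytes (9.98), and Junb had medians of 16.8 and 6.56. The cells overlapped over nearly the whole range, and the CPM were 3341 and 1566 for Fos and 2793 and 892 for Junb. Gadd45g, a stress-induced growth arrest gene, stood at 2049 and 170 CPM (12-fold lower, 9.12 to 16.0), and Rrad, a small GTPase of muscle, at 666 and 39.8 CPM (16.7-fold lower, 9.62 to 30.5). Both were also lower in the IMQ cells with more Myh11, by 2.24 and 2.35 on the log2 scale. Vtn (vitronectin), a matrix protein made by pericytes, was seen in 8 of 12 and 10 of 22 cells, at 470 and 57.4 CPM (8.18-fold lower, 4.81 to 14.1), against 220 and 122 CPM in the cells with more Myh11.

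Chemokine and matrix genes depended on the mixed cells. Of 9 chemokines and cytokines compared, 6 were called lower in the IMQ pericytes and 0 higher (median log2 ratio -1.21), but over the 54 cells 3 of 8 were lower and 1 higher (-0.72). Cxcl1, a neutrophil chemokine, was 2310 and 996 CPM with all cells (2.32-fold lower, 1.94 to 2.77) and 2055 and 1509 CPM over the 54 (1.36-fold, 1.06 to 1.73). Ccl11 (eotaxin) was lower in both readings, by 6.54-fold (3.80 to 11.3) and 6.25-fold (3.52 to 11.1). Col1a1, the main fibrillar collagen, was 3.22-fold lower with all cells (2.74 to 3.78) and 1.46-fold higher over the 54 (1.07 to 2.03), since 1 mixed normal cell with 4 UMIs of Pdgfra held 192 of the 237 normal UMIs. Among fibrillar matrix genes 4 of 19 were higher and 4 lower with all cells, and 4 of 18 and 1 over the 54. The genes of highest ratio with all cells, Krt1 and Krt10, and S100a8, S100a9, Krt17 and Krt6a among genes more abundant in other cells, were not 2-fold higher without the mixed cells, where most of their UMIs were gone.

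Few MHC class I and interferon-induced genes, which serve antigen presentation and antiviral defence, had enough UMIs to be compared. Of 4 MHC class I genes compared 1 was lower and 0 higher, H2-K1, a class I heavy chain, with medians of 9.94 and 3.85 UMIs per 10000 and levels of 914 and 404 CPM. In the 54-cell reading H2-D1 was lower too. Of 6 interferon-induced genes 2 were lower and 1 higher with all cells, and over the 54 Isg15, a ubiquitin-like protein, was lower alone (4.49-fold, 2.23 to 8.80). Of 9 NF-kB feedback genes 4 were lower in both readings, Socs3, Irf1, Zfp36 and Cebpd. Of 10 acute phase and complement genes Lcn2 and the protease inhibitor Serpina3n were higher and Mt1 lower. Vasoactive, basement membrane, leukocyte adhesion, heat shock and NRF2 lists had at most 2 genes called in either direction, of 13, 13, 7, 12 and 9 compared. The LRP1 list had 2 of 6 genes higher and 2 lower, and the angiogenic list 1 of 4 higher and 1 lower. Over the 54 cells these were 1 of 4 and 1, and 1 of 3 and 0. Of all genes compared 17.7% were called higher and 10.4% lower. Of 14 cell cycle genes 9 were higher and 1 lower, the inhibitor Cdkn1a (median log2 ratio 1.70), and over the 54 cells 3 of 8 were higher, Tuba1b, Stmn1 and Ccnd1, and 1 lower (0.83).

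By the rule for named genes, the 12 genes of highest ratio that were at least as abundant in pericytes as in other cells also held Pi15, Kpnb1, Pgd, Capn2, Pla1a, Tfg and Prkar2a. Of the 12, 8 stayed at least 2-fold higher over the 54 cells, Ccnd1, Timp1, Pi15, Kpnb1, Adamts2, Capn2, Pla1a and Prkar2a. Pla1a, a phospholipase that acts on phosphatidylserine, had 1 UMI in the normal and 58 in the IMQ pericytes, spread over 14 cells. Pi15, a secreted peptidase inhibitor, had 1 and 95 UMIs, the latter in 7 cells. Of the 12 lowest, 8 stayed lower, Secisbp2l, Rrad, Apoe, Gadd45g, Vtn, Igfbp5, Angptl4 and Ccl11, and Mgst1, Acbd6, Plin2 and Ermp1 did not.

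The second comparison, IMQ+celastrol against IMQ, addresses the effect of celastrol in inflamed skin. Cell cycle and MHC class I genes were higher in the IMQ+celastrol pericytes, and Il6, Cxcl1 and, over the 54 cells, acute phase and immediate early genes were lower. Of 5003 compared genes 325 (6.5%) were called higher in the IMQ+celastrol library and 286 (5.72%) lower, with a median log2 ratio of 0.04. Without the mixed cells 177 of 3392 (5.22%) were higher and 206 (6.07%) lower, with a median of -0.00094. Fewer genes differed here than between IMQ and normal, where counts were also smaller. This comparison and the previous one share the IMQ library, so a chance high or low value there enters both.

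Of 22 cell cycle genes compared, 8 were called higher and 0 lower, with a median log2 ratio of 0.85. Without the mixed cells 15 of 21 were higher and 0 lower, with a median of 1.79. Stmn1, a microtubule regulator of dividing cells, ranged from 0 to 24 UMIs per 10000 in the IMQ+celastrol pericytes (median 5.01, 23 of 29 cells) and from 0 to 14.7 in the IMQ pericytes (median 0, 5 of 22 cells). Most IMQ+celastrol cells thus lay above most IMQ cells, at 647 and 227 CPM (2.85-fold, 2.29 to 3.57). Hist1h2ap, a replication-dependent histone, was 13.1-fold higher (7.34 to 25.7), Nuf2, a kinetochore protein, 13.6-fold (3.50 to 116, from 2 against 38 UMIs) and Foxm1, a transcription factor of the G2 phase, 7.61-fold (2.38 to 38.8, from 3 against 32). With the cycling cells left out the list's median was 0.06. Ccnd1 was 329 and 372 CPM, and the growth arrest gene Cdkn1a 150.2 and 162 CPM.

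**Figure D4:**
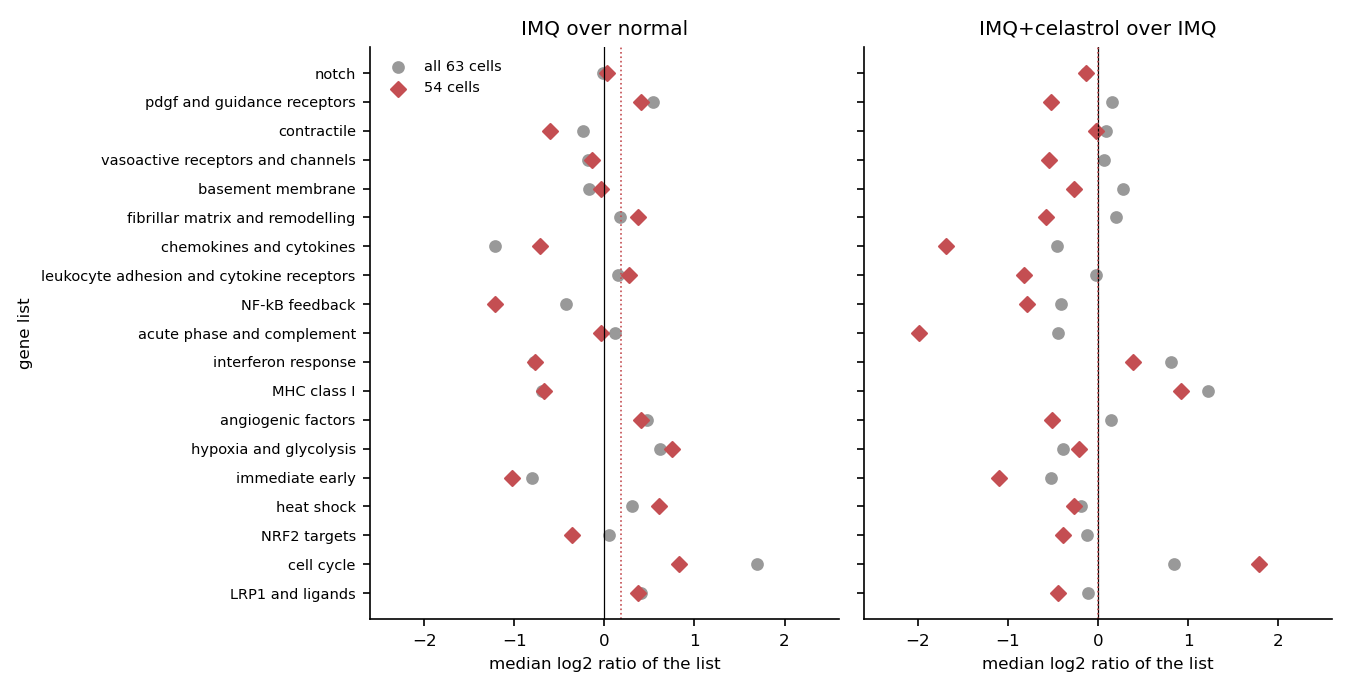
Median log2 ratio of each gene list (y) in pericytes, for IMQ over normal (left) and IMQ+celastrol over IMQ (right), over all 63 cells (grey circles) and the 54 without the mixed cells (red diamonds). The solid line is 0 and the dotted line the median of all genes compared over the 54 cells. Between the treated libraries the cell cycle list lies at 0.85 and 1.79 and MHC class I at 1.22 and 0.92, while acute phase and complement lies at -0.45 and -1.99 and chemokines and cytokines at -0.45 and -1.69.

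Il6, Cxcl1, Cxcl12 and Cp were lower with celastrol. Il6 ranged from 0 to 65.4 UMIs per 10000 in the IMQ pericytes (9 of 22 cells) and from 0 to 24.4 in the IMQ+celastrol pericytes (8 of 29), with medians of 0 in both. High cells were found in both libraries, and the sums were 247 and 45.7 CPM, 5.41-fold lower with celastrol (3.57 to 8.45) and 6.28-fold over the 54 cells (4.12 to 9.88). The normal pericytes stood at 692 CPM, from 6 of 12 cells. Cxcl1 was seen in 15 and 16 cells, with medians of 2.01 and 0.498 and maxima of 180.0 and 48.7. It was 3.98-fold lower (3.31 to 4.80) and 4.38-fold over the 54 cells (3.62 to 5.33). Cxcl12, which retains leukocytes and progenitors near vessels, was 4.42-fold lower (2.81 to 7.16), with 1 IMQ cell at 91.0 UMIs per 10000 and 7 cells in each library.

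Of 10 chemokines and cytokines compared, 4 were lower and 1 higher, and over the 54 cells 5 of 9 were lower and 0 higher. The median moved from -0.45 to -1.69. Ccl2, a monocyte chemokine, was 66.3 and 120.0 CPM with all cells, and Il34, a ligand of the macrophage receptor Csf1r seen in 15 and 25 cells, was 159 and 178 CPM. The Rgs5-positive cells with more Myh11 had 247 and 91.9 CPM of Il6 and 880 and 305 CPM of Cxcl1, so the lower level with celastrol was present in both populations. Cxcl12 was 184 and 105 CPM there.

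Acute phase and complement genes were split with all cells, 3 of 13 higher and 5 lower (median -0.45), and lower without the mixed cells, 0 of 10 and 8 (median -1.99). The copper-binding ferroxidase Cp, a gene of the acute phase outside the list, was seen in 17 of 22 IMQ pericytes with a median of 3.20 UMIs per 10000 and a maximum of 20.1. In the IMQ+celastrol pericytes it was seen in 13 of 29 with a median of 0 and a maximum of 2.69, below the IMQ median. The levels were 298 and 69.3 CPM (4.30-fold lower, 3.04 to 6.19), and 78.3 CPM in the normal pericytes. In the cells with more Myh11 they were 41.6, 129 and 31.6 CPM for normal, IMQ and IMQ+celastrol. Lcn2, a siderophore-binding protein, had 122 UMIs in 5 IMQ cells and 17 in 5 IMQ+celastrol cells, and Hp, haptoglobin, 35 in 4 cells and none, which is at least 16.4-fold lower against the floor. Steap4, a metalloreductase, was 5.43-fold lower (2.44 to 13.7). The metallothionein Mt1 had medians of 13.0 and 2.6 and was 2.75-fold lower (2.40 to 3.15), with 2845 CPM in the normal cells. The higher members with all cells, C3, C4b and Saa3, were lower over the 54, where their counts were under 30.

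**Figure D5:**
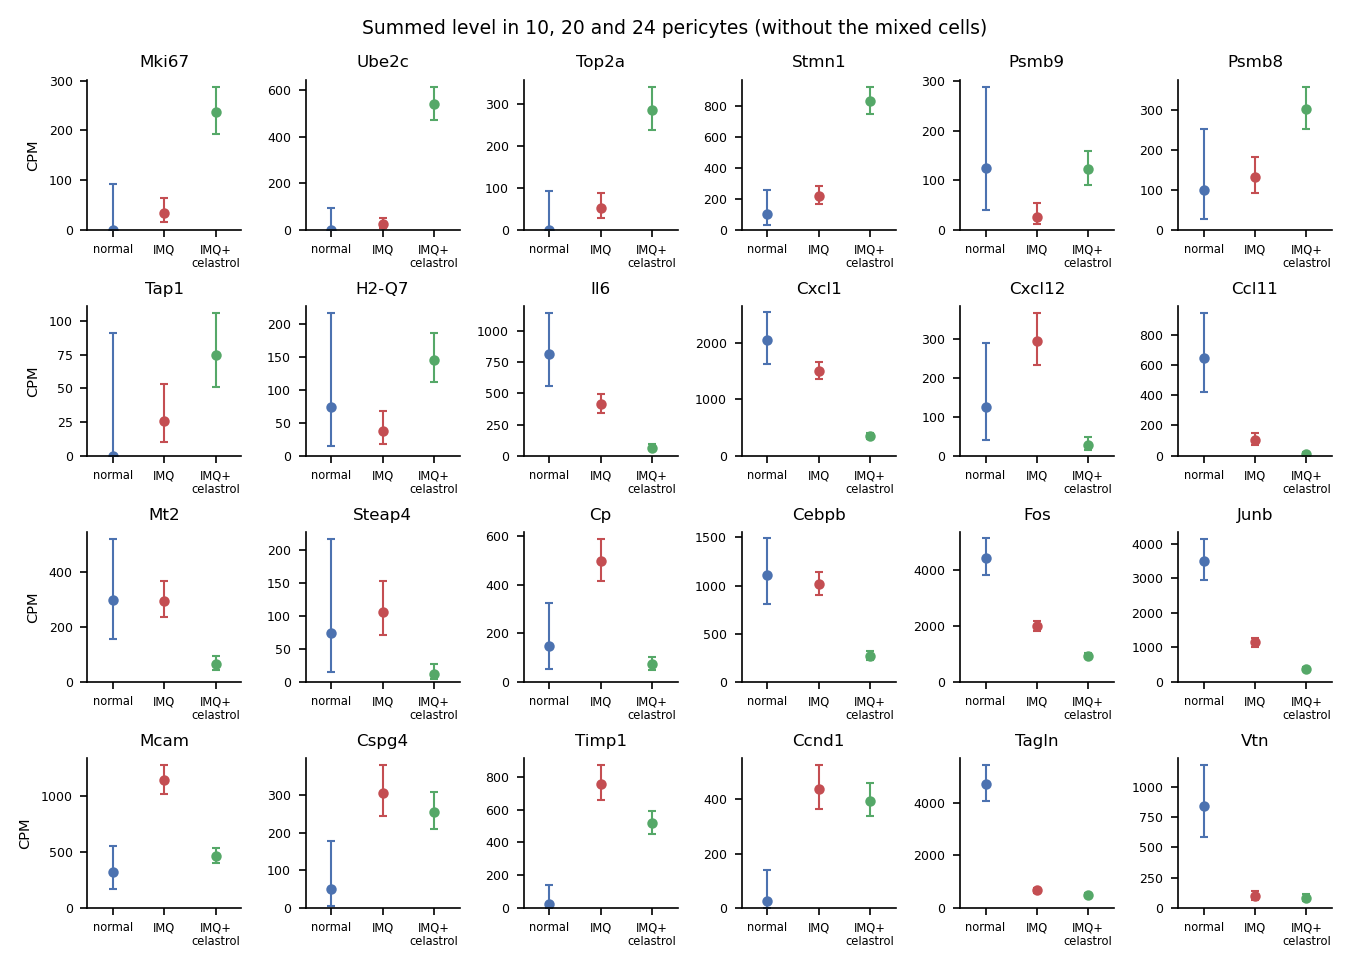
Level of 24 genes, in CPM, summed over the 10 normal, 20 IMQ and 24 IMQ+celastrol pericytes that are not mixed cells, with exact 95% Poisson intervals of counting error and a y axis from 0 in each panel. Mki67, Ube2c and Stmn1 stand highest in the IMQ+celastrol library, Cp highest in the IMQ library, and Tagln and Vtn highest in the normal library.

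Transcription factors and feedback genes of the inflammatory response come next. Of 11 genes of the NF-kB feedback list 4 were lower and 0 higher (median -0.41), and 3 of 10 over the 54 cells (-0.79). Cebpb, a factor that drives acute phase genes, had medians of 5.32 and 2.17 UMIs per 10000 and was 2.94-fold lower (2.48 to 3.49). Cebpd was lower by 1.10 on the log2 scale, and Nfkbia, the inhibitor that NF-kB induces, was 722 and 561 CPM. Of 12 adhesion and cytokine receptor genes 1 was higher and 1 lower, Osmr, the oncostatin M receptor, at 102 and 33.1 CPM (list median -0.02). Over the 54 cells 0 of 9 were higher and 3 lower, Osmr, Il1r1 and Ifngr2, receptor genes for oncostatin M, interleukin 1 and interferon gamma (-0.82). Immediate early genes were lower in 3 of 18 with all cells (median -0.52) and in 10 of 17 over the 54 (-1.10), with none higher in either. Junb had medians of 6.56 and 3.79 and levels of 892 and 482 CPM, and 1144 and 380 CPM over the 54 cells. Fos was 1.55-fold lower (1.39 to 1.73), and 2.14-fold over the 54 (1.88 to 2.44).

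Genes of antigen presentation were higher with celastrol. Of 10 MHC class I genes compared 5 were called higher and 0 lower in both readings, with medians of 1.22 and 0.92. Psmb8, a subunit of the immunoproteasome, was seen in 16 of 22 and 27 of 29 pericytes with medians of 0.715 and 1.75 UMIs per 10000 and similar maxima of 10.2 and 10.4. Its levels were 88.3 and 247 CPM (2.80-fold, 1.97 to 4.07). Psmb9, its partner, was seen in 5 and 20 cells (6.22-fold, 2.84 to 16.1), Tap1, a peptide transporter, in 7 and 20 (4.89-fold, 2.20 to 12.8), and H2-Q7 in 9 and 20 (4.58-fold, 2.48 to 9.24). The class I heavy chains H2-K1 and H2-D1 were below 2-fold, at 404 and 781 CPM and at 738 and 1197 CPM. With the cycling cells left out the list's median was 0.34. In the normal pericytes Psmb9 stood at 65.3 CPM and H2-D1 at 1436 CPM. The cells with more Myh11 differed less between the treated libraries, by 0.50 for Psmb8, 0.72 for Psmb9 and 0.38 for Tap1 on the log2 scale.

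Interferon-induced genes were 4 of 12 higher and 0 lower with all cells (median 0.82) and 1 of 9 higher and 1 lower over the 54 (0.39). Ifi27l2a was seen in 3 IMQ and 15 IMQ+celastrol pericytes, 11.9-fold higher (5.89 to 28.2), and 5.73-fold over the 54 cells (2.76 to 13.8). Bst2 (tetherin) was 128 and 340 CPM, and Isg15 53.0 and 109 CPM against 248 CPM in the normal cells. Rtp4, an interferon-induced receptor chaperone, was seen in 3 and 18 pericytes (7.49-fold, 2.72 to 28.8).

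Nrgn (neurogranin), a calmodulin-binding protein best known from neurons, was not seen in any IMQ pericyte and was seen in 21 of 29 IMQ+celastrol pericytes, at 0 to 3.98 UMIs per 10000 with a median of 0.755. With 0 UMIs against 70 it was at least 16.6-fold higher, and at least 12.7-fold over the 54 cells. In the normal pericytes it had 2 UMIs, each in a different cell. The Rgs5-positive cells with more Myh11 held 277 CPM of it where normal, 17.1 after imiquimod and 83.3 with celastrol added, so the normal cells were highest there.

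Vasoactive receptors and channels had 4 of 17 genes higher, of which 1 was Rgs5 of the rule, and 1 lower with all cells (median 0.07), and 0 of 15 higher and 4 lower over the 54 (-0.54). Ednrb, an endothelin receptor, was the gene lower in both, seen in 12 and 14 cells with maxima of 21.7 and 12.2 UMIs per 10000, at 252 and 63 CPM (4.0-fold, 2.76 to 5.88). Npy1r, the neuropeptide Y receptor that constricts vessels, was 6.08-fold lower (2.45 to 18, from 26 against 6 UMIs). Mcam was 707 and 402 CPM and Des 738 and 424 CPM, 1.76-fold (1.49 to 2.08) and 1.74-fold (1.48 to 2.05) lower, and 2.47-fold and 2.45-fold over the 54 cells. Contractile genes differed little, 1 of 18 lower, the phosphatase inhibitor Ppp1r14a (174 and 75.6 CPM), and none higher. With all cells no gene of 7 on the Notch list and none of 12 on the PDGF and guidance list was called, and over the 54 Mcam alone was.

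Matrix lists had few genes called. Basement membrane genes were 2 of 18 higher with all cells and 0 of 17 over the 54, and Col4a1, a chain of its main collagen, was 2144 and 1813 CPM. Of the fibrillar list 3 of 22 were higher with all cells and 0 lower, Mmp2, Mmp3 and Eln (list median 0.20). Over the 54 their counts were under 30 in these 2 libraries, where Mmp2 had 2 and 15 UMIs, and 0 of 19 compared genes were higher and 2 lower, the proteases Adamts1 and Adamts9 (-0.57). Igf1 had 79 UMIs in 5 IMQ+celastrol cells and none elsewhere, and 77 of these UMIs were in the mixed cells. Heat shock genes, which celastrol is known to induce in cultured cells, had 1 of 13 higher, the small heat shock protein Cryab (294 and 690.0 CPM), and 1 lower, Bag3. The list median was -0.19. Over the 54 cells 0 of 12 heat shock genes were higher and 1 lower, with a median of -0.27. Of the NRF2 targets 0 of 11 were higher and 2 lower, Gclm and Slc7a11, and neither was called over the 54 cells. Glycolytic and hypoxia genes had 0 of 15 higher and 1 lower, the glucose transporter Slc2a1, and angiogenic factors 3 of 9 higher, of which Tgfb3 alone was higher over the 54.

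Lrp1, the receptor named in the study's title, had 11, 16 and 80 UMIs in 7, 7 and 13 pericytes, or 144, 35.3 and 126 CPM. With all cells it was 3.57-fold higher in IMQ+celastrol than in IMQ pericytes (2.07 to 6.54). Without the mixed cells the counts were 8, 10 and 15 UMIs and the ratio 1.05 (0.421 to 2.49), so the difference lay in the 5 mixed IMQ+celastrol cells. Of 8 genes of the LRP1 and ligand list compared between the treated libraries, Lrp1 was the one called.

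By the rule for named genes, the 12 genes of highest ratio between the treated libraries were Hist1h2ae, Nrgn, a (agouti), Nuf2, Hist1h2ap, Ltbp1, Runx1t1, Aqp1, Foxm1, Hist1h1e, Rtp4 and Psmb9, and all but a, Ltbp1 and Aqp1 stayed past 2-fold over the 54 cells. The 12 lowest were Krt1, Krt10, Pi15, Npy1r, Serpina3f, Il6, Atp1b1, Tnfrsf12a, Cp, Golga3, Ephx3 and Dusp7, and all but Krt1, Krt10 and Golga3 stayed. Pi15, which stood higher in the IMQ than in the normal pericytes, was 7.83-fold lower with celastrol (4.64 to 14), from 95 UMIs in 7 cells to 17 in 4. Tnfrsf12a, the receptor of TWEAK, had 58 UMIs in 11 IMQ and 16 in 12 IMQ+celastrol cells (5.08-fold, 2.88 to 9.47).

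Against normal, as background, 648 of 3634 genes (17.8%) were higher in the IMQ+celastrol pericytes and 333 (9.16%) lower, with a median log2 ratio of 0.16. Over the 54 cells 466 of 2395 (19.5%) were higher and 304 (12.7%) lower. The levels of Timp1 (433 CPM), Ccnd1 (372 CPM), Adamts2 (365 CPM), Cd248 (455 CPM) and Gapdh (1514 CPM) stood near those of the IMQ pericytes and away from the normal ones. Il6 was 15.1-fold lower than in normal pericytes (9.45 to 24.7) and Cxcl1 9.22-fold (7.40 to 11.5). Rrad (20.5 CPM), Vtn (58.3 CPM) and Gadd45g (306 CPM) were low in both treated libraries. Immediate early genes were lower than normal in 12 of 17 and, over the 54 cells, in 14 of 15, with none higher.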

How the data were processed

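Single cells of dorsal skin were profiled as 3' gene expression, 1 library per group. The authors deposited per-library matrices of whole-number UMI counts per gene and barcode. Per the file headers the software was Cell Ranger 4.0.0. The submitters' processing notes name mm10 and GRCm38. No other normalization is recorded, and the counts were used as deposited. How the authors called cells or handled doublets is not given in the sources used here, and cells were filtered as stated above.

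The 3 libraries held 10565, 8236 and 6777 barcodes, of which 10428, 8008 and 6422 were kept. UMIs were summed over the pericytes of a library and divided by their total to give CPM. Genes with at least 30 UMIs in the 2 libraries compared were used, and a gene was called at 2-fold. A library at 0 was set to 3 UMIs, which makes the ratio a lower bound. Intervals are exact 95% Poisson for levels, conditional binomial for ratios and Clopper-Pearson for shares. Code was tested on simulated data.

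Genes were named by a rule: in each comparison the 12 of highest and the 12 of lowest ratio with a UMI in at least 20% of the higher library's pericytes and at least as abundant there as in other kept cells. The 5 highest and 5 lowest of genes more abundant in other cells were added, and mitochondrial, ribosomal and provisional genes were left out. Members of 20 gene lists were named mostly in order of their UMIs. The limits for mixed cells, Plac8, Tnfrsf21 and other genes outside these rules were chosen after their values were seen. The pericytes and all lists were chosen with earlier results of these data known.

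Doublets were scored with Scrublet in scanpy 1.11.5 with a rate that grows with the number of cells, and removed only as an alternative. Other tools were Python 3.11.15, numpy 2.4.6, scipy 1.17.1, pandas 2.3.3 and matplotlib 3.10.9.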

Additional observations from a re-analysis of the deposited data

Results flagged for a closer look

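These genes are given because their log2 ratio between libraries had opposite signs, at 2-fold or more, in pericytes and in another population of the same libraries. Of 199 genes compared in pericytes between IMQ and normal, 1 did so against the Rgs5-positive cells with more Myh11 and 13 against fibroblasts. Of 272 compared in pericytes between IMQ+celastrol and IMQ, 0 and 2 did. The differences between populations were not tested, since each group is 1 library. Fibroblasts were chosen to hold no Rgs5 and no Myh11. They held 11407107 UMIs in the normal and 36239847 in the IMQ library, so the minimum of 30 UMIs is a trace level there. The part of free RNA in their ratios was not tested. The genes compared were the named genes, list members and cell type markers with at least 30 UMIs in both readings of the pericytes. Genes with fewer in the other population are counted among them but could not be flagged. A gene also had to keep its pericyte sign, at 2-fold or more, without the mixed cells. That sign is therefore a condition of the choice and not a result.

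Stmn1 was higher by 1.80 in IMQ than in normal pericytes and stood at -1.19 in the cells with more Myh11 and at -2.58 in fibroblasts. Ccnd1 was at 4.66 in pericytes and -2.03 in fibroblasts, Cspg4 at 2.85 and -1.07, and Mcam at 1.44 and -3.12. In the other direction, Vtn was at -3.03 in pericytes and 2.52 in fibroblasts. Fabp4, a fatty acid carrier, was at -1.97 and 3.29. The chemokines Ccl2 and Cxcl10 were at -1.36 and -1.11 in pericytes and at 1.96 and 1.36 in fibroblasts. Cebpd was at -1.99 and 1.04, and the protease gene Adamts1 at -1.51 and 1.03. Itga7 was at -1.04 and 1.08, Mt1 at -1.03 and 1.46, and Npy1r at -1.03 and 2.10. Between IMQ+celastrol and IMQ, Atp1b1, a subunit of the sodium pump, was at -2.39 in pericytes and 1.12 in fibroblasts. Ppp1r14a was at -1.21 and 1.64.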

How the results depend on the processing

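No paired analysis was possible because each group is 1 library. With no replicates, what follows compares choices of cells and genes within the same libraries. The 12 normal pericytes held 76628 UMIs, which leaves many genes under the minimum, and 1 or 2 large cells hold a large part of each library's sum. Of the gene counts 44 stayed within 1.5 times and 46 did not, of the cycling shares 20 stayed within their interval and 10 did not, and of the ratios of named genes 1040 kept direction and call, 42 dropped under 2-fold and 21 turned. A mitochondrial limit of 10% changed no value. The cause of each change below was not tested.

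Counts of called genes are given as higher and lower. For IMQ against normal they were 284 and 144 with an Rgs5 limit per 10000 UMIs, 109 and 57 with genes of other cell types left out (10, 11 and 5 cells), 236 and 168 with cycling cells left out (11, 18 and 9), 39 and 27 thinned to 2000 UMIs, 309 and 167 without mixed cells, 878 and 631 with no Myh11 limit, 217 and 123 without mixed and cycling cells (10, 17 and 8), 117 and 73 from 100 UMIs and 1018 and 2109 from 1 UMI. For IMQ+celastrol against IMQ they were 47 and 94 with genes of other cell types left out, 23 and 40 thinned, 48 and 156 without mixed and cycling cells, 55 and 74 from 100 UMIs and 1482 and 1418 from 1 UMI. There, 187 were lower with the Rgs5 limit per 10000, and 137 were higher without cycling cells, 177 without mixed cells, 566 by the mean over cells and 206 with 10 CPM added. For IMQ+celastrol against normal they were 67 and 67, 132 and 144 without cycling cells, 65 and 43 thinned, 112 and 78 without both, 157 and 78 from 100 UMIs, 983 and 2426 from 1 UMI, and 518 lower with no Myh11 limit.

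The pericyte share of IMQ+celastrol over IMQ was 0.567 with genes of other cell types left out, 0.623 without cycling cells, 0.587 without mixed and cycling cells and 5.18 with all pericytes set over the number of cells that are not epithelial. Over normal it was 0.812, 1.33, 1.30 and 9.70. The last of these divides by cells to which most IMQ+celastrol pericytes do not belong: among them the pericytes were 11 of 5559, 18 of 5441 and 4 of 1385 (0.198%, 0.331% and 0.289%). The cycling share of normal pericytes was 0 with genes of other cell types left out, thinned, without mixed cells or by Mki67. That of IMQ pericytes was 0 in the first of these and 4.69 with no Myh11 limit. That of IMQ+celastrol pericytes was 20, 29.6 thinned, 48.3 by Mki67 and 11.2 with no Myh11 limit (percent).

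Between the treated libraries the cell cycle median was 1.53 with the Rgs5 limit per 10000, 0.058 without cycling cells, 0.28 without mixed and cycling cells, 1.79 without mixed cells and 1.85 by the mean over cells. That of chemokines was -1.13 without the top Scrublet cells, -3.11 with genes of other cell types left out, -3.32, -2.86 and -1.69 without cycling, both and mixed cells, -1.77 thinned and -1.17 by the mean. Acute phase was -1.18 with the Rgs5 limit per 10000, -2.05, -1.70, -1.68 and -1.99. MHC class I was 0.13 with genes of other cell types left out, 0.34 without cycling cells, 0.34 thinned and 0.27 with no Myh11 limit. Immediate early was -1.74, -1.13, -1.52 and -1.10, -1.31 thinned and -1.25 by the mean.

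Signs turned for these genes and this list. Over normal in IMQ, Col1a1 was 0.55 with genes of other cell types left out, 0.94 without cycling, 0.54 without mixed, 0.57 without both and 0.37 with no Myh11 limit, Col1a2 0.34, 0.027 and 0.61 for cycling, mixed and no limit, and the chemokine median 0.17 with genes of other cell types left out. Over IMQ, Krt1 was 2.31 and 2.11, and Krt10 0.71 and 1.47, with Rgs5 limits of 6 UMIs and per 10000, and Krt6a 1.97 with the latter. Without mixed cells Acbd6 was 1.46 and Ndufa4 1.73 in IMQ+celastrol over normal. With no Myh11 limit Krt10 was -0.94 and Il11ra1 0.073 (IMQ over normal), Mmp2 -0.22 and Tnfrsf12a 0.024 (IMQ+celastrol over IMQ) and Krtdap -1.08 and Krt17 -0.22 (over normal).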
